A study of Homo sapiens with 9 samples.

Results

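Integrins and adhesion molecules are the receptors with which a cell holds on to other cells and to the extracellular matrix. A list of 34 genes was examined in the Hodgkin lymphoma cell line L-1236 and in LTA knockout clones of it, and 33 of the 34 have a row on the array used. The members were found by their gene symbol, and each of the 33 has exactly 1 row. ITGA1 was not analysed here. The measured members comprise 16 integrin alpha subunits, 7 integrin beta subunits, 4 immunoglobulin-family ligands of integrins (ICAM1, ICAM2, ICAM3 and VCAM1) and 6 other adhesion receptors (PECAM1, CD44, SELPLG, ALCAM, L1CAM and NCAM1). They are 33 of 20893 transcript clusters tested, a transcript cluster being the set of probes that the array sums into 1 value for a gene.

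An integrin is a pair of 1 alpha and 1 beta subunit, and neither subunit reaches the cell surface in quantity without a partner. The pair decides the ligand, for example ICAM proteins for the leukocyte integrins with the beta-2 subunit, VCAM1 for alpha-4 beta-1, MADCAM1 for alpha-4 beta-7 and fibronectin or vitronectin for integrins with alpha-V. ICAM1 and VCAM1 are classical targets of NF-kB, the transcription factor that cytokines of the TNF family activate. CD44 binds hyaluronan, PECAM1 and ALCAM bind copies of themselves on neighbouring cells (ALCAM also binds CD6), and SELPLG, once decorated with sugars, is the ligand of selectins. Hodgkin and Reed-Sternberg cells live among many leukocytes of other kinds, and adhesion molecules take part in those contacts.

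RNA was hybridised to 9 human Clariom S arrays, 3 for each of 3 groups, and values are log2 signals after RMA. The control group, v2, carries the Cas9 vector lentiCRIPSPR_v2, is titled wild type and has no LTA guide named in its label. Clone g2_1 carries the vector with guide g2 against the second LTA exon, and clone g3_4 the vector with guide g3 against the fourth. Each knockout group is 1 clone grown from a single cell, so its arrays repeat 1 clone. The clones were maintained in conditioned medium of L-1236 cells. RNA was taken after 72 h in RPMI with heat-inactivated serum, without conditioned medium, and 250 ng of it was labelled. The labels do not settle whether the control was also a single-cell clone or had been kept in conditioned medium, so those differences cannot be told apart from the loss of LTA. They also name no separate cultures, so the p-values rest on a spread between samples of a group that may be technical alone. In bulk RNA, fewer cells that express a gene and less RNA per cell cannot be told apart.

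The targeted gene, LTA, had a log2 signal of 11.24 ± 0.29 (SD, n = 3) in control, 7.54 ± 0.43 in g2_1 and 6.93 ± 0.32 in g3_4. LTA was lower by a log2 change of -3.71 in g2_1 (limma adjusted p = 1.5e-06) and -4.31 in g3_4 (adjusted p = 4.2e-07). Array medians were 6.27 to 6.29 in control and 6.15 to 6.19 on the knockout arrays. The RNA integrity number was 10 for the arrays numbered 1 and 9.5 to 9.6 for the other arrays.

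Of the 33 measured members, 9 changed in both clones in the same direction at a limma adjusted p under 0.05. The 4 that fell were VCAM1, PECAM1, CD44 and ALCAM, which is 12.1% of the members where 6.97% of all tested transcript clusters fell. The 5 that rose were the integrin subunits ITGAL, ITGB1, ITGB3 and ITGB7 and the selectin ligand SELPLG, which is 15.2% where 4.48% of all rose. The falls were large, each past a log2 change of 1 in both clones, where 2.9% of all tested transcript clusters fell that far. Of the rises, those of ITGAL and ITGB7 passed 1 in both clones, and 0.699% of all did. The members were chosen with earlier results of these data known, so these shares are a description and no test of enrichment. The median change of the 33 members with the clones averaged was 0.02, beside 0.035 for all tested transcript clusters, and the median absolute change was 0.195, beside 0.138. By role, 1 of 16 alpha subunits and 3 of 7 beta subunits rose and none of either fell. Among the 4 immunoglobulin-family ligands 1 fell, and among the 6 other receptors 3 fell and 1 rose.

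**Figure D1:**
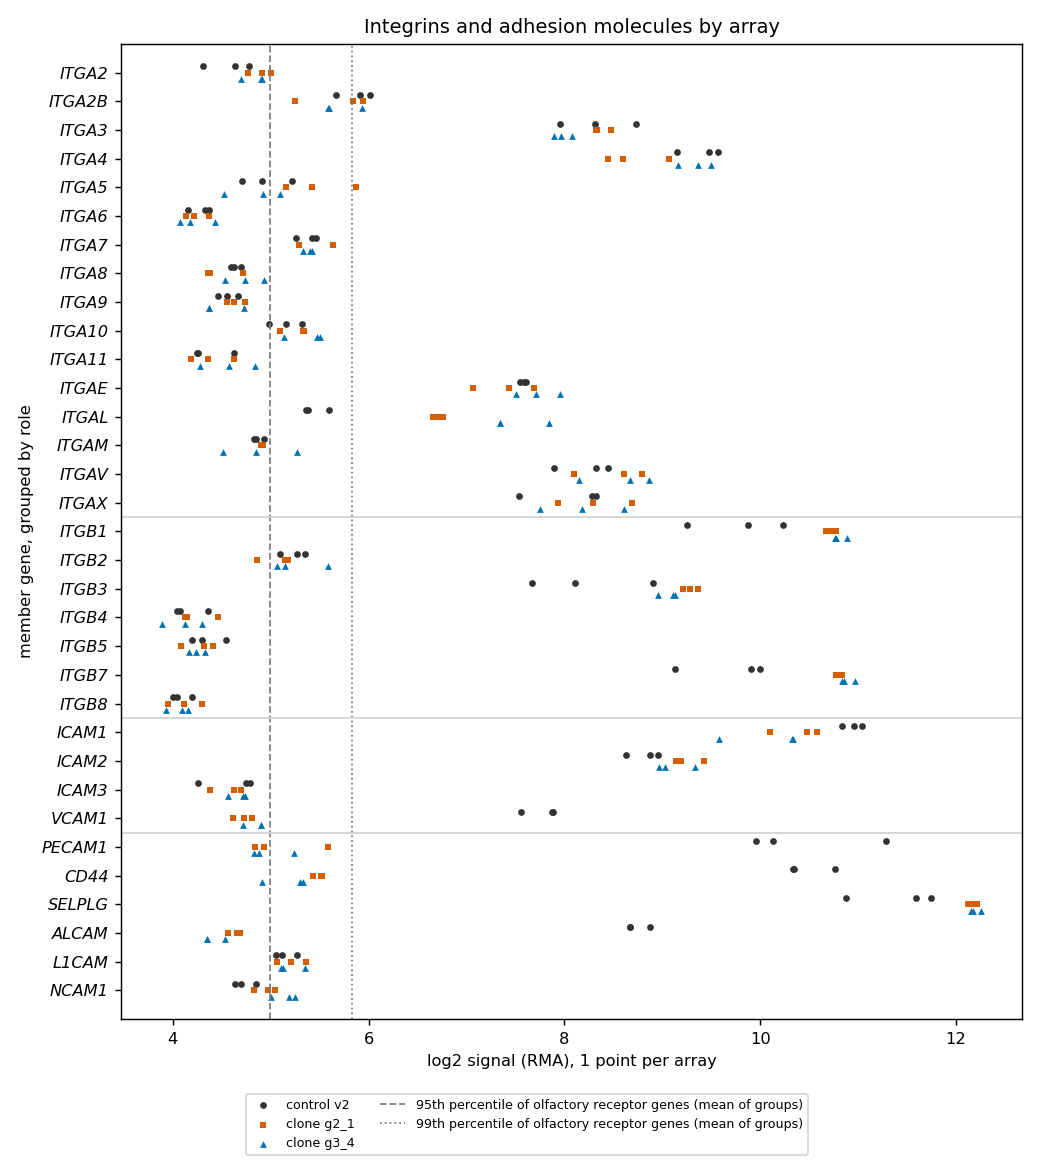
The log2 signal of the 33 measured members (rows, grouped by role) is plotted with 1 point per array, control in black, clone g2_1 in orange and clone g3_4 in blue. The vertical lines are the 95th and 99th percentiles of 348 olfactory receptor genes, averaged over the groups. The control points of VCAM1, PECAM1, CD44 and ALCAM lie far to the right of the points of both clones, which lie near the lines.

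PECAM1 (CD31, chromosome 17) is a receptor of platelets, leukocytes and endothelium that binds itself between cells. PECAM1 signals were 11.28, 9.96 and 10.13 on the control arrays, 5.59, 4.84 and 4.93 in g2_1 and 4.88, 5.24 and 4.83 in g3_4. Every control array lay more than 4 log2 units above every knockout array. The log2 change was -5.34 in g2_1 (SE 0.31, limma adjusted p = 8.9e-07) and -5.47 in g3_4 (SE 0.31, adjusted p = 7.4e-07), which is 40.4-fold lower in g2_1 and at least 43.9-fold lower in g3_4. The g3_4 value is a bound because the clone mean lay under the 95th percentile of olfactory receptor genes, a yardstick for genes that are not expressed, and was replaced by it.

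CD44 (chromosome 11), the hyaluronan receptor, is the other member with a fall past 5 in the averaged comparison. CD44 had control signals of 10.76, 10.33 and 10.35, against 5.51, 5.52 and 5.43 in g2_1 and 5.30, 5.33 and 4.91 in g3_4. The control arrays and the knockout arrays were each close together and did not overlap. The change was -4.99 in g2_1 (SE 0.15, limma adjusted p = 4e-09) and -5.30 in g3_4 (SE 0.15, adjusted p = 2.9e-09), or 31.9-fold and 39.4-fold lower.

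ALCAM (CD166, chromosome 3), a receptor of the immunoglobulin family, stood at 8.87, 8.67 and 8.67 in control, 4.69, 4.56 and 4.66 in g2_1 and 4.35, 4.53 and 4.35 in g3_4. Its spread within each group was small, with an SD of 0.12 in control. ALCAM fell by 4.10 in g2_1 (SE 0.10, limma adjusted p = 1.2e-09) and by 4.33 in g3_4 (SE 0.10, adjusted p = 1.1e-09). VCAM1 (chromosome 1), the counter-receptor of alpha-4 beta-1, read 7.88, 7.56 and 7.87 in control, 4.73, 4.81 and 4.61 in g2_1 and 4.72, 4.90 and 4.90 in g3_4. Again no knockout array reached a control array. The VCAM1 change was -3.05 in g2_1 (SE 0.12, limma adjusted p = 3e-08) and -2.93 in g3_4 (SE 0.12, adjusted p = 3.6e-08).

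The clone means of these 4 genes, 4.41 to 5.49, lie at the bottom of the array's range. The files carry no detection flags, so genes that lymphoid cells are not known to use served as a yardstick. The 95th percentile of 348 olfactory receptor genes was 4.94 in control and 5.03 in g2_1, with g3_4 between them, and their 99th percentile was 5.79 to 5.85. VCAM1 and ALCAM were above the 95th percentile in control alone, and against that percentile VCAM1 was at least 6.67-fold lower in g2_1 and at least 6.82-fold lower in g3_4, and ALCAM at least 13-fold and at least 13.3-fold lower. PECAM1 was above it in control and, at a mean of 5.12, in g2_1, and CD44 was above it in all groups, but neither reached the 99th percentile in a clone. Near this floor of the array a further decrease would not be measured.

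Promoter sequences are shown for VCAM1 and ICAM1, classical NF-kB targets, for CD44 and ALCAM, which fell too, and for ITGB7, a risen subunit, so that their letters can be set side by side. Each line holds the 250 bases before the gene's start, 5′ to 3′ on the gene's strand, from RefSeq on GRCh38.p14. The windows are chr1:100719492-100719741 (+) for VCAM1, chr19:10270870-10271119 (+) for ICAM1, chr11:35138921-35139170 (+) for CD44, chr3:105366659-105366908 (+) for ALCAM and chr12:53207252-53207501 (-) for ITGB7. Capitals mark matches, on either strand, to the NF-kB consensus, the AP-1 motif TGANTCA, the TATA motif TATAAA and the interferon response motif GAAANNGAAA. The NF-kB consensus was used in a strict form that starts with GGG and ends with CC. Sites that depart from that form are not marked, so a window without a match may still hold an NF-kB site.
VCAM1: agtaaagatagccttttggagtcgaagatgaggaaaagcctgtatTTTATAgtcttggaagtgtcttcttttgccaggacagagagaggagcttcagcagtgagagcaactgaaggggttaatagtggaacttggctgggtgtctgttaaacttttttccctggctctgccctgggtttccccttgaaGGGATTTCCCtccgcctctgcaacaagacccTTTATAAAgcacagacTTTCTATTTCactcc
ICAM1: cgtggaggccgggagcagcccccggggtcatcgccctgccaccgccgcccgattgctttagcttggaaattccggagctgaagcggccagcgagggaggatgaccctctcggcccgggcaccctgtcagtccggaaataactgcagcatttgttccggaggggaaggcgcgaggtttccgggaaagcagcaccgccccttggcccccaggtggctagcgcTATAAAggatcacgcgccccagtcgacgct
CD44: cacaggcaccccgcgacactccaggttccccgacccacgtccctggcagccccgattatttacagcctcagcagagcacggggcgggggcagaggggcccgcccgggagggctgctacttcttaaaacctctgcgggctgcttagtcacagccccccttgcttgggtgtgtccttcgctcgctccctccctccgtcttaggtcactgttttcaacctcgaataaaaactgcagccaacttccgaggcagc
ALCAM: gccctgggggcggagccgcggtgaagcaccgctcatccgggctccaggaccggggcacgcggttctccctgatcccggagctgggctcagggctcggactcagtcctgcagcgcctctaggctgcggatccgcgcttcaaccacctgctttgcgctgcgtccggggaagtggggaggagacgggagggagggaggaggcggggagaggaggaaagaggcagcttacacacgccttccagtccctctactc
ITGB7: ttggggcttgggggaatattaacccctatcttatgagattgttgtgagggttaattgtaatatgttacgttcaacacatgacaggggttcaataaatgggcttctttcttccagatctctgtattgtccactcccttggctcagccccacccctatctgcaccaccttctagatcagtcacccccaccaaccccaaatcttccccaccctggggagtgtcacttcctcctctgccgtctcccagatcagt

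The VCAM1 window holds 1 match to the NF-kB consensus, GGGATTTCCC, at positions -62 to -53 from the start, which reads as a match on both strands. It also holds TATAAA at -29 to -24, overlapped on the other strand by a match at -31 to -26, another at -205 to -200, and an interferon response match at -15 to -6. ICAM1 has TATAAA at -30 to -25 and no other match, and the windows of CD44, ALCAM and ITGB7 have none. Of all 35114 promoter windows of this length, 5.21% hold the NF-kB consensus, 6.57% the AP-1 motif, 10.7% the TATA motif and 3.02% the interferon response motif. For 22 of the 34 listed genes 30 windows were given, and the NF-kB consensus was found in 5 of the 30, those of ITGA1, ITGA5, ITGA10, ITGA11 and VCAM1. The TATA motif was found in 4 of the 30 (ICAM1, ITGA6, ITGB1 and VCAM1), the interferon response motif in 2 (ITGB5 and VCAM1) and the AP-1 motif in 0. The windows also differ in base composition: VCAM1 has 46% GC with 2 CpG and ITGB7 49.6% with 2, against 62.4% with 15 in CD44, 66% with 23 in ICAM1 and 68.8% with 20 in ALCAM (median of all windows 58% and 11). A match is a description of letters and says nothing about whether a factor binds there.

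ICAM1, the ligand of the beta-2 integrins on other leukocytes, was lower in smaller measure. Its signals were 11.04, 10.96 and 10.84 in control, 10.10, 10.58 and 10.48 in g2_1 and 9.58, 10.32 and 10.33 in g3_4. No knockout array reached the lowest control array. ICAM1 fell in g3_4 by 0.87 (SE 0.20, limma adjusted p = 0.0131), whereas the g2_1 change of -0.56 (SE 0.20, adjusted p = 0.0922) did not pass. With the clones averaged, ICAM1 was called lower at -0.72 (SE 0.17, limma adjusted p = 0.0137). It passed in both clones in some of the alternatives tried, such as when only the groups compared were fitted and when g3_4 array 1 was left out. The difference between the clones, -0.31 (95% interval -0.75 to 0.13), is within their spread. ICAM2, another ligand of beta-2 integrins, had all 6 knockout arrays (8.97 to 9.43) above the control arrays (8.63 to 8.96), with a change of 0.36 (SE 0.12) that did not pass in either clone. ICAM3 read 4.26 to 4.79 over the 9 arrays, below the 95th percentile of olfactory receptor genes in each group.

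**Figure D2:**
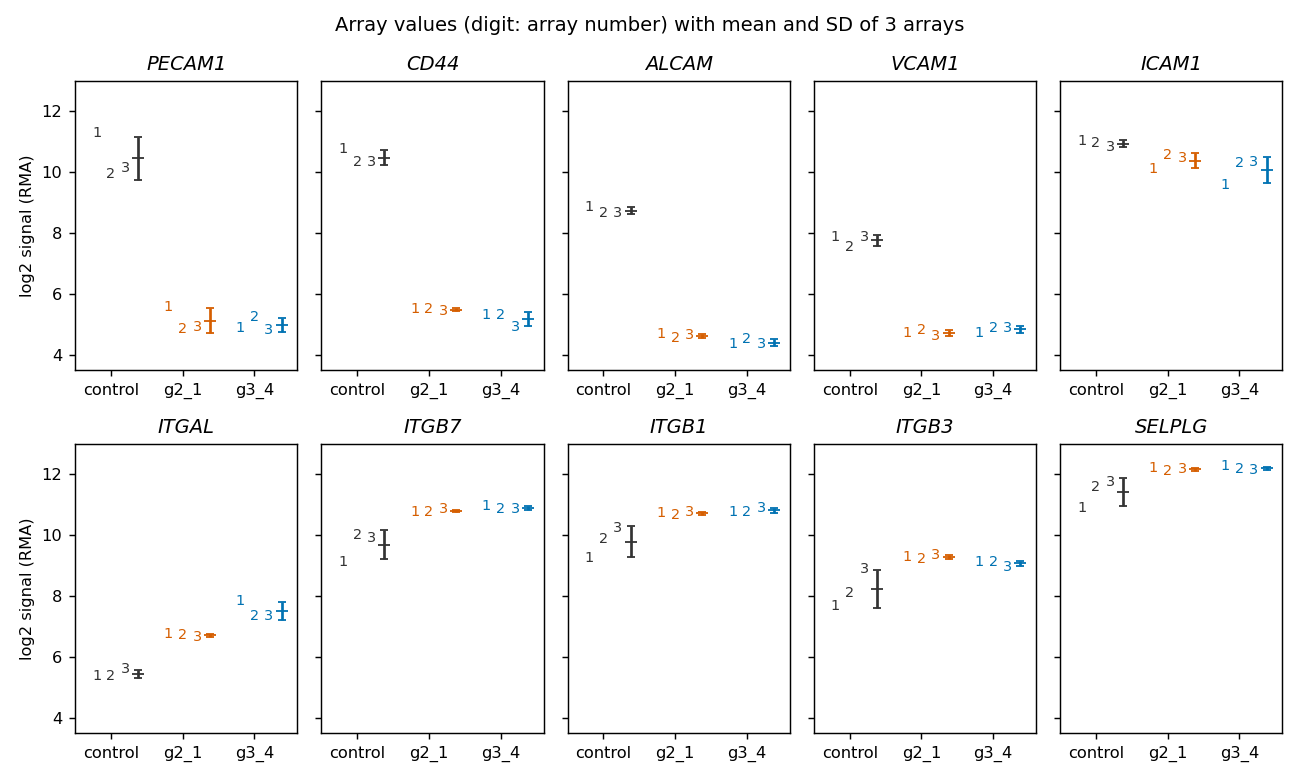
The log2 signal of the members that changed in both clones and of ICAM1 is plotted by group, each digit being the array of that number, with the group mean and SD of 3 arrays beside it. The fallen members drop from control means of 7.77 to 10.48 to clone means of 4.41 to 5.49, while the clone points of the risen members lie above their control points, and for the risen members other than ITGAL they lie closer together than the control points.

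ITGAL (chromosome 16) encodes alpha-L, the alpha subunit of the leukocyte integrin that binds ICAM proteins. Its signals were 5.36, 5.38 and 5.60 in control, 6.76, 6.71 and 6.66 in g2_1 and 7.84, 7.34 and 7.34 in g3_4, in 3 groups of arrays that did not overlap. ITGAL rose by 1.26 in g2_1 (SE 0.14, limma adjusted p = 0.00014) and by 2.06 in g3_4 (SE 0.14, adjusted p = 2.8e-06), which is 2.4-fold and 4.17-fold. Of all tested transcript clusters, 36 had an averaged rise at least as high. Its control mean of 5.45 lies between the 95th and 99th percentiles of olfactory receptor genes and both clone means lie above the 99th. ITGB2, the only beta subunit with which alpha-L pairs, read 5.09, 5.27 and 5.35 in control, 5.15, 5.18 and 4.86 in g2_1 and 5.15, 5.58 and 5.06 in g3_4. The groups of ITGB2 overlapped, its change was -0.07 (95% interval -0.36 to 0.21), and its means stayed under the 99th percentile in every group.

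ITGB7 (chromosome 12), the beta subunit of the gut-homing integrin alpha-4 beta-7 and of alpha-E beta-7, rose in both clones. Its signals were 9.13, 10.00 and 9.91 in control, 10.77, 10.77 and 10.84 in g2_1 and 10.97, 10.84 and 10.86 in g3_4. The rise was 1.11 in g2_1 (SE 0.19, limma adjusted p = 0.00246) and 1.21 in g3_4 (SE 0.19, adjusted p = 0.00152). The partner ITGA4 read 9.15, 9.48 and 9.57 in control, 8.45, 8.60 and 9.07 in g2_1 and 9.16, 9.50 and 9.36 in g3_4. ITGA4 fell in g2_1, by 0.69 (SE 0.17, limma adjusted p = 0.0203), while the g3_4 change was -0.06 (95% interval -0.44 to 0.32). The call in g2_1 was lost without g2_1 array 1 or 2 or control array 2 or 3, at values of -0.88 to -0.57 over all 9 such fits. The partner ITGAE read 7.59, 7.61 and 7.55 in control, 7.69, 7.43 and 7.07 in g2_1 and 7.95, 7.51 and 7.71 in g3_4, with a change of -0.02 (95% interval -0.33 to 0.28).

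ITGB1 (chromosome 10), the beta subunit shared by the largest number of integrins, had signals of 9.25, 9.88 and 10.23 in control, 10.73, 10.67 and 10.77 in g2_1 and 10.76, 10.77 and 10.89 in g3_4. The 6 knockout arrays lay in a narrow band above the control arrays. ITGB1 rose by 0.94 in g2_1 (SE 0.20, limma adjusted p = 0.00842) and by 1.02 in g3_4 (SE 0.20, adjusted p = 0.00525). ITGB3 (chromosome 17), the beta subunit of the vitronectin and fibrinogen receptors, had signals of 7.67, 8.11 and 8.90 in control, 9.28, 9.21 and 9.36 in g2_1 and 9.13, 9.11 and 8.96 in g3_4. Control array 3 came within 0.1 of the lowest knockout array. ITGB3 rose by 1.06 in g2_1 (SE 0.24, limma adjusted p = 0.0126) and by 0.84 in g3_4 (SE 0.24, adjusted p = 0.0389). This call held in both clones only without control array 3 among the 9 fits that leave out 1 array, at averaged values of 0.67 to 1.29 and adjusted p up to 0.113.

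SELPLG (chromosome 12), the scaffold of the P-selectin ligand, had signals of 10.88, 11.59 and 11.74 in control, 12.21, 12.12 and 12.16 in g2_1 and 12.26, 12.17 and 12.15 in g3_4. SELPLG rose by 0.76 in g2_1 (SE 0.18, limma adjusted p = 0.018) and by 0.79 in g3_4 (SE 0.18, adjusted p = 0.0146). Its call in both clones was lost without any 1 of the g2_1 arrays or without g3_4 array 1, at values of 0.51 to 0.94 over the 9 fits. FUT7, the fucosyltransferase that finishes the sugar bound by selectins, rose by 1.52 on average (SE 0.20; limma adjusted p = 0.0012 in each clone), and ST3GAL4, a sialyltransferase of the same sugar, by 0.51 (SE 0.09). These were the 2 risen genes of 11 measured in the list of selectins and enzymes of their ligands, and none of that list fell, where 4.48% of all tested rose and 6.97% fell.

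Control array 1 stood at one end of the controls in each of the changed members. It was the lowest control for 5 of 5 risen members, as it was for 57.6% of all 935 risen transcript clusters, and the highest control for 4 of 4 fallen members, as for 62.9% of all 1456 fallen ones. For the risen members other than ITGAL, the SD was 0.46 to 0.62 over the control arrays and 0.04 to 0.09 over the arrays of a clone. The main fit pools these into 1 spread per gene. With only the groups compared fitted, the higher limma adjusted p of the clones was 0.0128 for ITGB7, 0.0299 for ITGB1, 0.0954 for ITGB3 and 0.0518 for SELPLG. Without control array 1 the averaged rise was 0.89 for ITGB7, 0.71 for ITGB1, 0.67 for ITGB3, 0.51 for SELPLG and 1.62 for ITGAL. SELPLG thus went from 0.775 to 0.51 at the removal of this array. The falls without it were -4.99 for PECAM1, -5.01 for CD44, -4.15 for ALCAM and -2.94 for VCAM1. The 6 knockout arrays and the 3 control arrays did not overlap in any of the 9 called members, nor in ICAM1 and ICAM2, which makes 6 of 33 above (9.7% of all tested) and 5 of 33 below (10.6% of all).

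**Figure D3:**
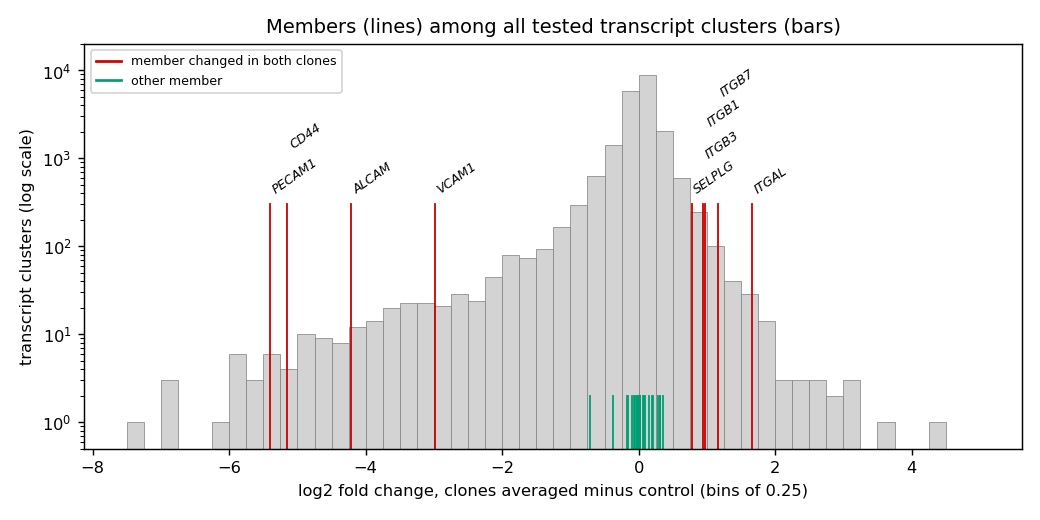
Bars count all 20893 tested transcript clusters (log scale) by log2 change of the clones averaged minus control, in bins of 0.25. Red lines mark the 9 members that changed in both clones and green lines the 24 other members, which lie between -0.72 and 0.36.

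The remaining members showed no call in both clones, with averaged changes of -0.72 (ICAM1) to 0.36 (ICAM2) and SEs of 0.09 to 0.23. Among alpha subunits with clear signal, ITGA3, a laminin receptor subunit, read 7.95 to 8.73 in control, 8.32 to 8.48 in g2_1 and 7.89 to 8.08 in g3_4, with a change of -0.15 (95% interval -0.47 to 0.17). ITGAV, the alpha partner of ITGB3, read 7.89 to 8.44 in control, 8.10 to 8.79 in g2_1 and 8.15 to 8.86 in g3_4, with a change of 0.31 (95% interval -0.11 to 0.74). ITGAX, the alpha-X subunit of myeloid and some B cells, read 7.54 to 8.32 in control, 7.93 to 8.69 in g2_1 and 7.75 to 8.61 in g3_4, with a change of 0.20 (95% interval -0.32 to 0.71). In ITGA4, ITGA7, ITGAV and ITGAX the array numbered 1 was the lowest of its group in all 3 groups, as it was for 10.1% of all tested transcript clusters. NCAM1, the neural cell adhesion molecule also found on NK cells, read 4.63 to 5.25 over all arrays. It was higher in g3_4 by 0.42 (SE 0.11, limma adjusted p = 0.025), and this call was lost without g3_4 array 1 or 2 or control array 2 or 3. With the clones averaged, NCAM1 was called higher by 0.32 (SE 0.09, limma adjusted p = 0.0382).

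Silent and expressed members were separated by the same yardstick. Group means of 18 members were above the 95th percentile of olfactory receptor genes in every group, 2 in control only (VCAM1 and ALCAM), none in both clones only, 3 in some groups (ITGA5 and PECAM1 in control and g2_1, NCAM1 in g3_4), and 10 in no group. The 10 were ITGA2, ITGA6, ITGA8, ITGA9, ITGA11, ITGAM, ITGB4, ITGB5, ITGB8 and ICAM3. Their 9 arrays read 3.89 to 5.27, their changes were -0.09 to 0.29, and 0 of 10 changed in both clones. They include the epithelial hemidesmosome pair alpha-6 beta-4 and ITGAM, the alpha-M subunit of myeloid cells. At the 99th percentile 11 members were above in all groups, 5 in control only, 1 (ITGAL) in both clones only and 16 in none. ITGA7, ITGA10, ITGB2 and L1CAM lay between these limits in every group, so whether they are expressed depends on the limit.

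Of the members near that limit, none was called in both clones apart from ITGAL, PECAM1 and CD44. ITGA2B, the alpha subunit of the platelet fibrinogen receptor with ITGB3, read 5.67 to 6.01 in control, 5.25 to 5.94 in g2_1 and 5.59 to 5.93 in g3_4, with a change of -0.17 (95% interval -0.52 to 0.17). ITGA7, a laminin receptor subunit of muscle, read 5.26 to 5.46, 5.29 to 5.64 and 5.33 to 5.42 in the same order of groups, and ITGA10, a collagen receptor subunit of cartilage, 4.98 to 5.32, 5.09 to 5.34 and 5.14 to 5.50. L1CAM, a neural adhesion molecule, read 5.05 to 5.27, 5.06 to 5.36 and 5.10 to 5.35, and these 4 genes overlapped between all groups. ITGA5 read 4.91, 4.71 and 5.22 in control, 5.87, 5.42 and 5.16 in g2_1 and 4.52, 4.92 and 5.09 in g3_4. Its g2_1 change of 0.54 (SE 0.20, limma adjusted p = 0.119) did not pass. ITGA2, the alpha-2 subunit of a collagen receptor, had a g2_1 change of 0.32 (95% interval 0.03 to 0.61) and an averaged change of 0.29 (95% interval 0.04 to 0.54), the highest among the silent members, at signals of 4.64, 4.31 and 4.78 in control and 4.70 to 4.91 in g3_4, with the g2_1 arrays at 4.77 and above. It did not pass, but was called higher with the clones averaged under array weights (limma adjusted p = 0.0345) and under centring of the arrays (limma adjusted p = 0.0274).

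Read as pairs, the subunits leave 6 integrins with both partners above the 99th percentile in all groups, of 21 known pairs with both subunits measured. They are alpha-3 beta-1, alpha-4 beta-1, alpha-V beta-1, alpha-V beta-3, alpha-4 beta-7 and alpha-E beta-7, and at the 95th percentile 11 pairs are above. In each of the 6, the beta subunit rose in both clones and the alpha subunit was not called in both. The ITGB3 call was lost in 8 of the 9 fits that leave out 1 array, and ITGA4 was called lower in g2_1 (-0.69, limma adjusted p = 0.0203). The 6 pairs share 3 beta genes, so they are not 6 separate observations, and RNA does not give the amount of a pair at the surface.

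The difference between the clones is taken without the control arrays. Its SEs, intervals and p-values are not free of them, because the main fit pools the spread of all groups. In g3_4 against g2_1, 0 of 33 members passed in limma, where 0.0335% of all tested transcript clusters were higher and 0.0191% lower. At an unadjusted p under 0.05 there were 5 (ITGA3, ITGA4, ITGA5, ITGAL and ALCAM), and 4.41% of all tested passed that limit. The largest difference was that of ITGAL, higher in g3_4 by 0.80 (95% interval 0.49 to 1.11, limma adjusted p = 0.127), and with array weights it passed (0.72, adjusted p = 0.0291). ITGA4 differed by 0.63 (95% interval 0.25 to 1.01) and ITGA5, the alpha subunit of the fibronectin receptor, by -0.64 (95% interval -1.09 to -0.19), with adjusted p of 0.551 and 0.741. With the clones fitted alone, 0 of 33 members passed as well, and ITGAL had a limma adjusted p of 0.107. Against control, 5 members were higher in g2_1 (6.19% of all) and 5 lower (8.06%), and 6 were higher in g3_4 (6.12%) and 5 lower (8.16%). With the clones averaged, 6 members were higher (8.13% of all) and 5 lower (9.83%). The comparisons with control share the same 3 control arrays.

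**Figure D4:**
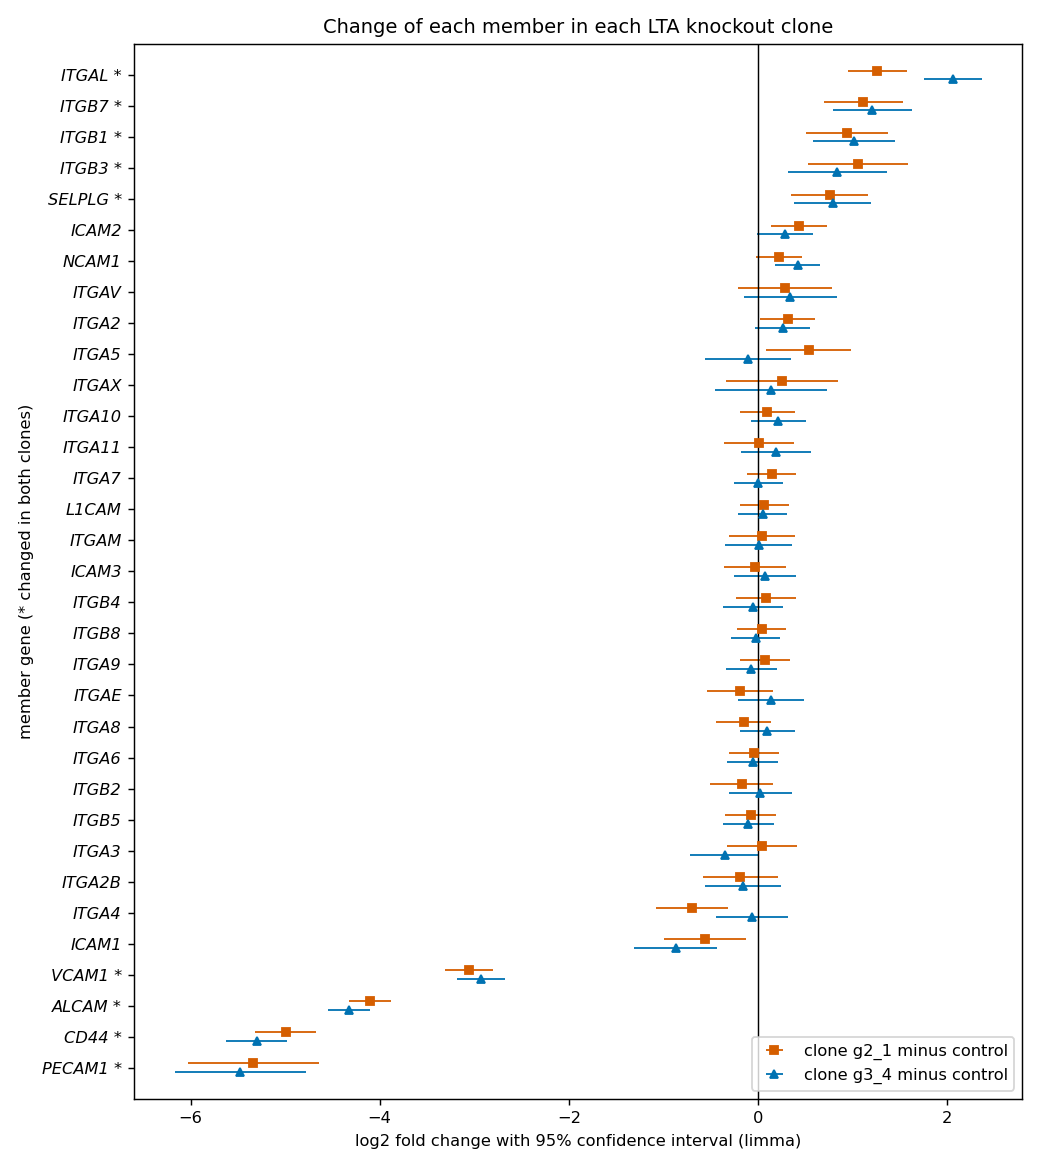
The log2 change of each measured member is plotted with its 95% interval, clone g2_1 in orange and clone g3_4 in blue, both against the same 3 control arrays. VCAM1, PECAM1, CD44 and ALCAM lie between -5.47 and -2.93 in both clones, and ITGAL is the member whose intervals in the clones do not overlap.

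The genes around each member on its chromosome were read too. The median change of the 50 nearest well-expressed genes was -0.25 to 0.16 for the 9 changed members. Outside this range were ITGA4 with 0.36, ITGAV with 0.42 and ITGA6 with 0.28, all on chromosome 2, and L1CAM on chromosome X with -0.28 over 48 genes.

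Partner genes were read from lists of the pathway. Of 20 measured cytoplasmic partners of integrins, 6 rose and 1 fell, and the median change was 0.09 beside 0.035 for all tested. For this list and those that follow, the share of all tested transcript clusters is 4.48% risen and 6.97% fallen in both clones. ACTN4, an alpha-actinin that crosslinks actin, rose by 0.70 (SE 0.09), PTK2B, a focal adhesion kinase of leukocytes, by 0.62 (SE 0.10), and PXN, the adaptor paxillin, by 0.58 (SE 0.11). VCL, which encodes vinculin and reinforces loaded adhesions, fell by 1.24 (SE 0.15). PTK2, another focal adhesion kinase, was named after its value was seen. Its change was -1.08 in g3_4 (limma adjusted p = 0.00239) and -0.56 in g2_1, which did not pass (adjusted p = 0.0675). Of 15 measured genes of integrin activation in leukocytes, 2 rose and 1 fell. APBB1IP (RIAM), which links RAP1 to talin, fell by 2.96 (SE 0.15), from 7.27 ± 0.31 (SD, n = 3) in control to 4.25 ± 0.26 in g2_1 and 4.36 ± 0.12 in g3_4. SKAP1, an adaptor of T-cell integrin activation, rose by 0.89 (SE 0.18) and RAP1A, the small GTPase itself, by 0.39 (SE 0.08). The RAP1A call was lost in each of the 9 fits that leave out 1 array, and that of SKAP1 in 4 of them.

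Among 25 measured matrix and plasma ligands, 3 rose and none fell: LAMC1, a laminin chain, by 1.04 (SE 0.21), FN1, fibronectin, by 0.85 (SE 0.09) and COL6A3, a collagen VI chain, by 0.56 (SE 0.11). The call of COL6A3 was lost in 6 and that of LAMC1 in 3 of the 9 fits that leave out 1 array. Of 8 measured cell surface ligands of integrins none changed in both clones. In the list of hyaluronan and CD44 partners, 3 of 13 rose and none fell. MSN (moesin), which ties membrane proteins to actin, rose by 0.73 (SE 0.14), its relative EZR (ezrin) by 0.39 (SE 0.08), and NF2 (merlin), a tumour suppressor of the same protein family, by 0.66 (SE 0.13). The call of EZR was lost in 6 and that of NF2 in 4 of the 9 fits that leave out 1 array. RDX (radixin), also of that family and named after its value was seen, had a change of 0.33 (SE 0.20) that did not pass in either clone. CD44, their receptor at the membrane, is not counted in that list. ESRP1, which is counted there and was named after its value was seen, fell in g3_4 by 1.12 (limma adjusted p = 0.0294). Its g2_1 change of -0.93 (adjusted p = 0.0675) did not pass.

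Of 10 measured tetraspanins with CD47, membrane proteins that associate with integrins, 3 rose and 1 fell. CD9 rose by 1.30 (SE 0.26), CD53 by 0.91 (SE 0.17) and CD151, a partner of laminin-binding integrins, by 0.64 (SE 0.12), while CD37, a tetraspanin of B cells, fell by 0.96 (SE 0.12). Of 17 other cell adhesion molecules 4 rose and none fell, led by CD2 with 1.56 (SE 0.23), its relative CD48 with 1.32 (SE 0.28) and the junction protein ESAM with 1.15 (SE 0.10). The call of CD48 was lost in 5, that of CD9 in 2 and that of CD151 in 1 of the 9 fits that leave out 1 array. The integrin subunits outside the members, ITGAD and ITGB6, were above the 95th percentile in no group and did not change. Over all lists 23 of 121 measured genes rose and 3 fell in both clones, beside 4.48% risen and 6.97% fallen of all tested transcript clusters. The lists too were chosen with earlier results of these data known, so this is no test of enrichment. Of the called genes, 10 of the 23 rises and all 3 falls kept their call with each of the 9 arrays left out in turn. Without control array 1, CD9 rose by 0.83, CD48 by 0.81, CD2 by 1.15, FUT7 by 1.18, LAMC1 by 0.70 and SKAP1 by 0.60, and RAP1A, COL6A3 and LIMS1 were no longer called.

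**Figure D5:**
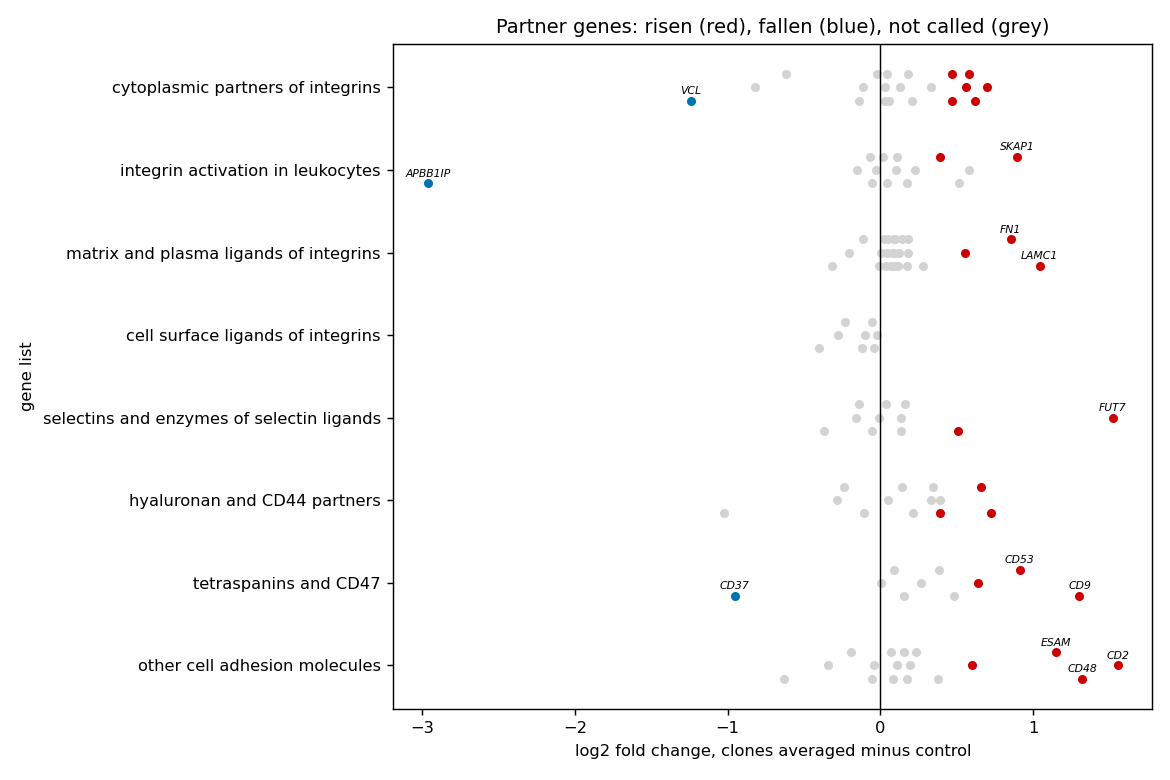
The log2 change of the clones averaged minus control is plotted for the measured genes of 8 pathway lists (rows), 1 point per gene, red where risen and blue where fallen in both clones and grey otherwise. Most points lie near 0, and APBB1IP at -2.96 is the lowest of the called genes.

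Marker lists were read for the cell types that share these molecules. All 5 markers of Hodgkin and Reed-Sternberg cells were above the 95th percentile in every group. TNFRSF8 (CD30) rose by 0.75 and the chemokine CCL22 fell by 1.18. Of 5 measured B-cell markers 4 were above it in each group, and PAX5 fell by 0.81 and POU2AF1, a B-cell coactivator, by 1.52. The mean of the B-cell list was 6.28 to 6.57 on the control arrays, 5.84 to 5.86 in g2_1 and 5.83 to 5.99 in g3_4. Whether this has a part in the adhesion changes was not tested. None of 5 endothelial markers, whose cell type also carries PECAM1, VCAM1 and ICAM2, changed in both clones, and their list mean was 4.73 to 4.97 in control, 4.89 to 5.03 in g2_1 and 4.94 to 5.05 in g3_4. None changed in both clones either among 5 T-cell (1 above the limit in each group), 3 NK-cell (1), 5 myeloid (3), 4 megakaryocyte (2), 5 fibroblast (3), 5 epithelial (2) and 2 erythroid markers (1 in control, 0 in g2_1 and 1 in g3_4). The erythroid marker HBB rose in g3_4 by 0.89 (limma adjusted p = 0.00109), against 0.17 in g2_1 (adjusted p = 0.492). The myeloid marker CD68 rose in g3_4 by 0.73 (limma adjusted p = 0.0401), and its g2_1 change of 0.64 (adjusted p = 0.0723) did not pass. The Hodgkin marker CCL17 fell in g3_4 by 0.98 (limma adjusted p = 0.0418), and its g2_1 change of -0.92 (adjusted p = 0.0549) did not pass. These 3 were named after their values were seen.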

How the data were processed

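RNA of 9 L-1236 samples was measured on Clariom S arrays. The deposited values are log2 signals that the authors made with RMA. Transcriptome Analysis Console 4.0 is the software that the submitters' processing notes name. The values hold no counts, detection flags or scanner signals, so the number of arrays limits the precision. RMA draws arrays to 1 distribution and compresses changes near the floor. The 20893 rows with transcript cluster IDs entered limma's lmFit and eBayes (version 3.58.1, R 4.3.3) with a coefficient for each group, over all 9 arrays and two-sided, and p-values were adjusted by Benjamini-Hochberg over all of them; 555 unmapped rows were not tested. A symbol was given for 17705. A gene rose or fell where its adjusted p was under 0.05 in both clones with 1 sign; in a single comparison, that comparison's adjusted p was used. Means have the SD of 3 arrays.

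Members and gene lists were chosen with earlier results of these data known. All members are named. Array values go to members changed by at least 1 and their partner subunits, and each pathway list gives up to 3 risen and 3 fallen genes. Array values of ICAM1, ITGB1, ITGB3 and SELPLG, array ranges of other members, and genes named for a lost or gained call were added once values had been seen, as was leaving out arrays for the pathway lists. Same-numbered arrays deviated together between the clones (correlations 0.435, 0.191 and 0.310). Against control the correlations of g2_1 and g3_4 were 0.285 and 0.298 for arrays 1, 0.0426 and 0.0565 for arrays 2, and 0.1825 and 0.2574 for arrays 3. The labels name no shared culture or day, so the main fit used no block. A block by array number was run as an alternative, and it changed some calls. The fit was tested on simulated data. Promoter windows came from RefSeq on GRCh38.p14, and that table was used otherwise for names and neighbours.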

Additional observations from a re-analysis of the deposited data

How the results depend on the processing

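Precision is limited by 3 arrays a group, by the single control line and by the floor of the array. VCAM1 and ALCAM lie under the 95th percentile of olfactory receptor genes in both clones, and PECAM1 does in g3_4. The falls of PECAM1 and CD44 kept their call in all 18 alternatives run and those of ALCAM and VCAM1 in all 17 that kept their rows, at -5.65 to -4.99, -5.22 to -5.01, -4.25 to -4.10 and -3.10 to -2.88. ITGAL, ITGB7 and ITGB1 kept theirs in 18 of 18 (1.52 to 1.77, 0.87 to 1.32 and 0.71 to 1.20), SELPLG in 13 and ITGB3 in 8. No value of a called member changed sign. Fitting only the groups compared left 3 risen members (ITGB3 at adjusted p 0.0954 and SELPLG at 0.0518 in limma). Centring each array on its median moved the median change of all transcript clusters from 0.035 to 0.147 and made 8 members higher in g2_1, adding ITGA2 (0.43), ITGA5 (0.65) and ICAM2 (0.55). Array weights left 1 member risen by at least 1 in both clones and made 1 higher in g3_4 than in g2_1. Without the arrays numbered 1, 1 member rose by at least 1. Testing only transcript clusters above the median left 2 members fallen, both past 1, and 3 lower in g2_1, in g3_4 and with the clones averaged, because this filter removes VCAM1 and ALCAM by their own level. A limit at the 99th percentile of olfactory receptor genes put 11 members in all groups, 5 in control only, 1 in both clones only, 0 in mixed classes and 16 in none, and a limit at the median of all transcript clusters put 11, 4, 1, 0 and 17 there. With 1 array left out, 3 to 5 members rose in both clones, 1 to 4 of them by at least 1, 3 to 6 were higher in g2_1 and 3 to 5 in g3_4, 0 to 1 were expressed in both clones only and 1 to 4 in mixed classes, and 14 to 23 pathway genes rose and 3 to 5 fell. With the replicate block, which pairs arrays by number, 5 members rose and 5 fell, ICAM1 being added. The averaged ICAM1 change was -0.72, and the higher limma adjusted p of the clones was 0.0452. The block also called ITGAV higher in g3_4 (0.34, limma adjusted p = 0.0232) and with the clones averaged (0.31, adjusted p = 0.0151). ITGA4 was called lower with the clones averaged (-0.38, limma adjusted p = 0.029). Of the results on single members, 573 kept call and sign, 24 lost a call, 4 gained one and 37 uncalled values changed sign. For most of these results a call meant a call in both clones. Calls gained in 1 clone or with the clones averaged only, such as those of ITGAV, are therefore not among the 4. The causes were not tested.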
